A study of Drosophila melanogaster with 6 samples.

Results

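Yorkie (Yki) sites in heterochromatin and on chromosome 4 were the peaks of an embryonic Yki ChIP-seq list that lay on 8 sequences of the fly genome assembly: chromosome 4, U, 2LHet, 2RHet, 3LHet, 3RHet, XHet and YHet. They were chosen by the name of their sequence alone, so that neither their score nor their width played a part. The rule took 290 of 5136 peaks, a share of 5.65% (exact 95% interval 5.03 to 6.31%). U held 132 of them, chromosome 4 held 51, 2RHet 37, 3RHet 27, 3LHet 26, 2LHet 7, and XHet and YHet 5 each. The collection Uextra, whose scaffolds are also assigned to no chromosome, was not included and serves below only for comparison, as do the 5 large arms 2L, 2R, 3L, 3R and X.

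Chromatin immunoprecipitation with sequencing (ChIP-seq) recovers the DNA that is crosslinked to a chosen protein. Whole Drosophila melanogaster embryos of 8 to 16 h were fixed in 1.8% formaldehyde for 15 min and yielded 3 Yki ChIP libraries and 3 input libraries. All 6 came from the strain with yellow, cinnabar, brown and speck mutations, whose labelled alleles are y[1], cn[1], bw[1] and sp[1] together with oc[R3.2], Gr22d[1], Gr22b[1], CG33964[R4.2], Rh6[1], GstD5[1], MstProx[1], lab[R4.2] and LysC[1]. The antibody was Yki91, a crude rabbit polyclonal serum against the full-length protein, and all cell types of the embryo were mixed in each library. The study's result is 1 list in which each peak has a start, an end and 1 score given by the authors. No source used here states the scale of the score, and the list has no value per library. Depth per library is therefore unknown, the spread between replicates could not be measured, and every value below describes this list without a test. The intervals cover counting error over peaks, and neighbouring peaks are not independent.

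Yki is the coactivator that the Hippo pathway controls. When Hippo signalling is low, Yki enters the nucleus, where it binds no DNA itself and is brought to enhancers and promoters by partners such as Scalloped and Homothorax, and growth and survival genes are turned on. Heterochromatin is the compact, repeat-rich and gene-poor chromatin around centromeres and on the Y, marked by methylated histone H3 lysine 9 and heterochromatin protein 1. Chromosome 4 is a special case, since its genes lie among repeats and in heterochromatin-like marks and are expressed all the same. It carries the developmental regulators cubitus interruptus (ci), eyeless (ey), twin of eyeless (toy) and zfh2, which the RefSeq gene table also lists on chromosome 4. The sequences ending in Het are scaffolds placed in the heterochromatin of the named arm or chromosome, and U joins scaffolds of unknown place end to end. Whether each scaffold of U is heterochromatic cannot be read from the list, which holds no histone mark. Peaks were not assigned to genes, because the gene table at hand follows another release than the FlyBase release 5 coordinates of the list.

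Yki peaks on these sequences were mostly weak. Their median score was 17.1 (95% interval of the median 15.4 to 18.1), compared with 31.0 (29.5 to 32.3) on the large arms and 35.9 (33.1 to 38.7) on Uextra. By definition 50.0% of the whole list lies in its stronger 50%, above a score of 30.1, but 49 of the 290 peaks did so, or 16.9% (exact 95% interval 12.8 to 21.7%). On the large arms the share was 50.97% (49.2 to 52.7%). When the whole list was divided by score into 4 classes of equal size, class 1, the weakest, with scores up to 16.07, held 136 of the 290 peaks, or 46.9%, and class 2 held another 105, or 36.2%. Class 3 held 28 peaks and class 4, the strongest, held 21, or 7.24% (4.54 to 10.9%).

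The median score lay under that of the whole list on all 8 sequences, but 3 of them had too few peaks to place their level well. The median score was highest on chromosome 4, at 18.6, and lowest on XHet, at 12.5. In between lay U with 17.4, YHet with 16.7, 3RHet with 16.6, 3LHet with 16.1, 2LHet with 14.3 and 2RHet with 14.2. The intervals of the medians of chromosome 4 (15.4 to 21.8), U (14.7 to 19.2), 3RHet (13.0 to 22.5), 3LHet (12.9 to 17.8) and 2RHet (12.5 to 19.1) all overlapped, so this order is not resolved. With 7 peaks the interval on 2LHet ran from 8.53 to 537.36, and none was formed for the 5 peaks each of XHet and YHet, where 1 and 2 peaks were in the stronger 50%. On 2RHet none of the 37 peaks was in the stronger 50% of the list (exact 95% interval 0 to 9.49%), and the highest score there was 28.81. The stronger 50% held 11 of 51 peaks on chromosome 4, or 21.6% (11.3 to 35.3%), 27 of 132 on U, or 20.5% (13.9 to 28.3%), and 11 of 107 on the 6 Het sequences together, or 10.3% (5.24 to 17.6%).

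**Figure D1:**
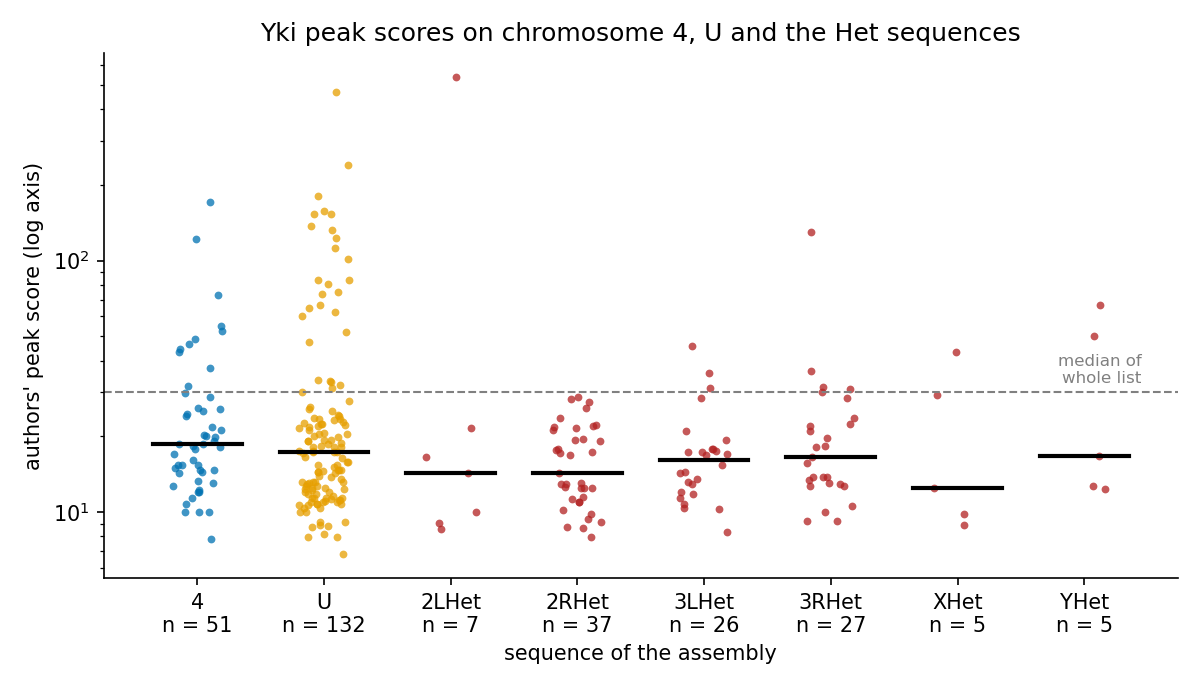
Authors' score of each of the 290 Yki peaks (points, log axis) by sequence, with the median of each sequence as a black bar and the median of the whole list, 30.1, as a dashed line. All 8 medians lie below the dashed line, and all 37 peaks of 2RHet lie under it. Single points on 2LHet and 3RHet stand far above the rest of their sequence. On U the highest score, 465.81, is followed by 239.62 and 180.05.

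A few sites stood out from this weak majority, and 16 of the 20 highest-scoring were on U, which held 132 of all 290. The exception at the very top was on 2LHet, where the peak at 367856 to 368942 scored 537.36 and ranked 1 of 5136. It was 1087 bp wide, lay 129 kb beyond its nearest neighbour, and the next peak of 2LHet ranked 3189. No source used here states the length of 2LHet, so whether this peak runs past the end of the scaffold could not be checked. The other 6 peaks of that sequence were ordinary weak sites. They lay at 33762 to 34841 with a score of 21.53, at 124309 to 124752 with 16.52, at 134309 to 134549 with 8.53, at 170076 to 170276 with 10.01, at 170483 to 170733 with 9.06 and at 238530 to 238790 with 14.29. Hence 1 peak alone carried 2LHet into the stronger part of the list, and without it the median of the sequence was 12.2.

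The strongest site on U lay at 9934441 to 9935082, with a width of 642 bp, a score of 465.81 and rank 6 in the list. The next on U, at 9691936 to 9692584, scored 239.62 and ranked 138. The sites at 8366678 to 8367112 and 9599014 to 9599405 scored 180.05 and 157.15, and those at 2605830 to 2606323 and 5528477 to 5529038 scored 153.80 and 153.44. The last of the 10 strongest members were also on U, at 2149012 to 2150363 with 136.94 and at 1941157 to 1942156 with 131.90. These 8 sites of U were 392 to 1352 bp wide, and none of them had another peak within 1 kb.

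Chromosome 4 supplied 1 of the 10 strongest members, the peak at 522094 to 522921 with a score of 170.40 and rank 306. A second strong peak lay 5.06 kb further along at 527983 to 529310, with a score of 121.77 and the largest width on the chromosome, 1328 bp. Between them was a weak peak at 525657 to 526200 with a score of 24.03. This trio was the strongest place on chromosome 4, where the next highest score was 73.22, at 980638 to 981163. The remaining 48 peaks, those other than the trio, spanned scores from 7.82 to 73.22.

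Peaks were spread along most of chromosome 4. Of its 14 windows of 100 kb, 12 held at least 1 peak, and none held more than 6. The first peak began at 62062, and the last ended at 1347730. The longest stretch without a peak was 216 kb, between the peaks ending at 592046 and starting at 808440, and it covered the 2 empty windows. The window from 0.5 to 0.6 Mb, with 6 peaks, had the highest median score of the chromosome, 41.2, and lies at the near edge of that empty stretch. On the far side, the window from 0.8 to 0.9 Mb also had 6 peaks but a median of 13.8. On the large Het sequences 18 of 33 windows on 2RHet, 13 of 23 on 3LHet and 11 of 24 on 3RHet held no peak, as did 41 of 101 on U.

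The short sequences of the sex chromosomes carried few peaks, 5 each, and whether they were sparse for their length was not resolved. With the furthest peak end as length, XHet had 24.5 peaks per Mb (exact Poisson 95% interval 7.97 to 57.3). YHet had 36.4 (11.8 to 84.9), and both intervals are wide. A sequence that runs on past its last peak would have a lower density than this. On YHet the first, at 4489 to 4829, scored 66.68 and the last, at 137065 to 137502, scored 50.00. Both were in the stronger 50% of the list. The 3 between them lay within 2.65 kb, from 72717 to 75364, with scores of 16.73, 12.36 and 12.69. On XHet the first peak, at 131 to 706, scored 43.38, and 4 peaks gathered between 196133 and 203675 with scores of 29.12, 8.86, 9.82 and 12.47. The highest peaks of the other Het sequences were at 2308120 to 2308638 on 3RHet with 129.44, at 1396455 to 1397055 on 3LHet with 45.84 and at 3125101 to 3125984 on 2RHet with 28.81. The 3RHet site ranked 552 in the list, where the next highest of its sequence, with 36.25, ranked 2293, and like the 2LHet site it was the last peak listed on its sequence.

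Peaks of the Het sequences were broad for their score in the second of the 4 score classes. Over all 290 peaks the median width was 378.5 bp (95% interval 348 to 408 bp), against 431 bp (420 to 446 bp) on the large arms. Wider peaks scored higher, and the Spearman correlation of width with score was 0.72 on the arms and 0.54 among the members. These correlations are across peaks of 1 list and carry no p. Widths were therefore set side by side within the score classes. In class 1, which held 54 of the 107 Het peaks, the median width was 306 bp (261 to 348 bp) on the Het sequences and 268 bp (260 to 277 bp) on the arms, with overlapping intervals. In class 2, at scores from 16.09 to 30.13, the median width was 562 bp (444 to 884 bp, 42 peaks) on the Het sequences, 432 bp (348 to 606 bp, 43 peaks) on U, 416 bp (293 to 512 bp, 20 peaks) on chromosome 4 and 339.5 bp (325 to 352 bp, 830 peaks) on the large arms. The interval of the Het sequences did not reach that of the arms. In class 3 the medians were 526 bp on the Het sequences (284 to 756 bp, 9 peaks) and 480 bp (463 to 496 bp) on the arms, with overlapping intervals. In class 4 the 16 peaks of U had a median of 528 bp (362 to 732 bp), against 748 bp (718 to 784 bp) on the arms and 490 bp (476 to 499 bp) on Uextra.

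**Figure D2:**
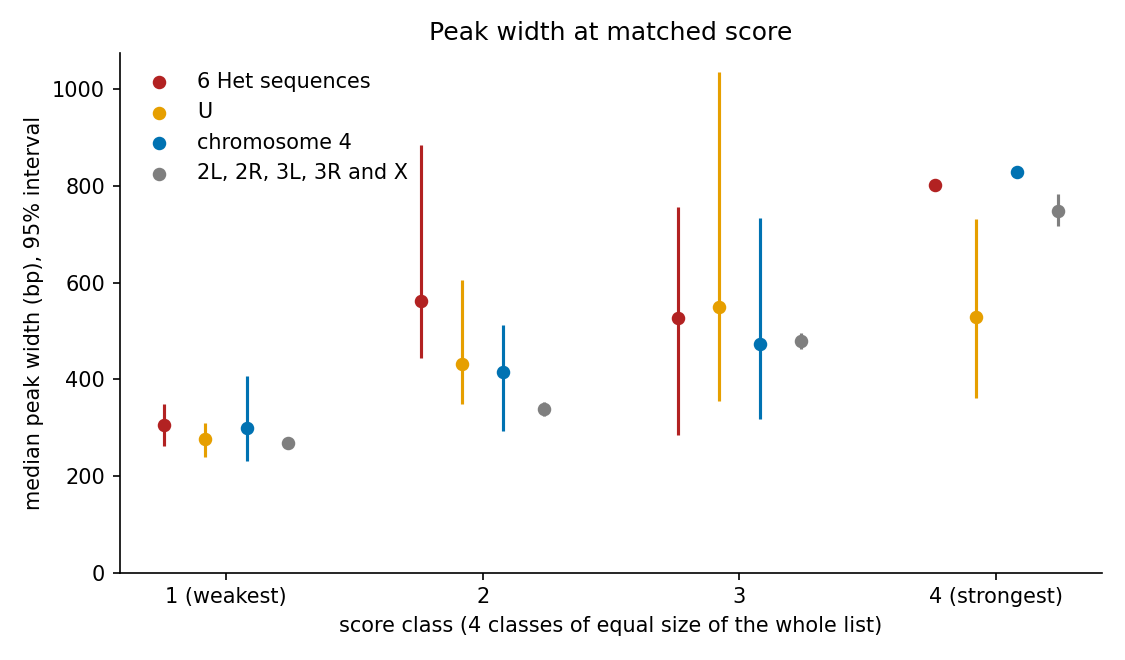
Median peak width (points, bp) with its 95% interval (lines, not drawn for fewer than 6 peaks) in each of the 4 score classes of the whole list. In class 2 the Het sequences reach 562 bp and the large arms 339.5 bp, and in class 4 U, at 528 bp, lies below the arms, at 748 bp.

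Broad peaks of the members and of the arms differed in score, as did their peaks of any width. Of the 290 peaks, 22 were at least 1000 bp wide, a limit chosen after seeing the list. This was 7.59% (exact 95% interval 4.82 to 11.3%), close to the 7.42% of the whole list. Of these 22, 6 lay in the stronger 50%, or 27.3% (10.7 to 50.2%), while 280 of the 320 broad peaks of the large arms did, or 87.5% (83.4 to 90.9%). Their median scores were 23.7 and 108. Over the whole list 318 of 381 broad peaks were in the stronger 50%. Among peaks of any width the shares were 16.9% for the members and 50.97% for the arms. The contrast of broad peaks thus in part repeats the lower scores of the members. On the Het sequences 1 of the 11 broad peaks was strong, the top site of 2LHet, and 10 fell in class 2.

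The 5 widest members were all on the Het sequences of chromosome 3 and arm 2R and were all weak. The widest, 2040 bp on 3LHet at 2206555 to 2208594, scored 28.41. It was followed on 3LHet by 1837 bp at 1280328 to 1282164 with a score of 19.27 and 1656 bp at 2203737 to 2205392 with 17.82. Next were 1655 bp at 1519103 to 1520757 on 3RHet with 22.49 and 1577 bp at 3123274 to 3124850 on 2RHet with 23.76. None of the 5 was in the stronger 50% of the list.

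Weak peaks of the Het sequences also lay side by side. Among all 5136 peaks 67.0% had a neighbour within 10 kb, and among the members 183 did, or 63.1% (57.3 to 68.7%). At this distance the members were near the background of the list. At 1 kb, a distance chosen after seeing the list, the classes parted. Over the whole list 29.2% of peaks had a neighbour within 1 kb. On the Het sequences 62 of 107 did, or 57.9% (48.0 to 67.4%), on U 44 of 132, or 33.3% (25.4 to 42.1%), on chromosome 4 9 of 51, or 17.6% (8.40 to 30.9%), and on the large arms 29.1% (27.5 to 30.7%). The share was 62.2% on 2RHet, 65.4% on 3LHet and 55.6% on 3RHet, so no single one of these large scaffolds made the Het value.

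Gaps between adjacent peaks showed both ends of this pattern. On the Het sequences 38.6% of 101 gaps were at most 1 kb, 10.9% were between 1 and 10 kb, and 50.5% were longer, of which 23 gaps exceeded 100 kb. On chromosome 4 the order was 10.0%, 34.0% and 56.0% of 50 gaps, of which 2 exceeded 100 kb. The large arms had 16.4%, 25.1% and 58.5%, and U had 20.6%, 19.1% and 60.3% of 131 gaps. In all these classes most gaps were thus either at most 1 kb or longer than 10 kb. The share in between was lowest on the Het sequences, followed by U, the large arms and chromosome 4. The longest gap on U was 724 kb and that on 3LHet 703 kb. On U a gap need not be a distance in the genome, since its scaffolds are joined end to end.

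**Figure D3:**
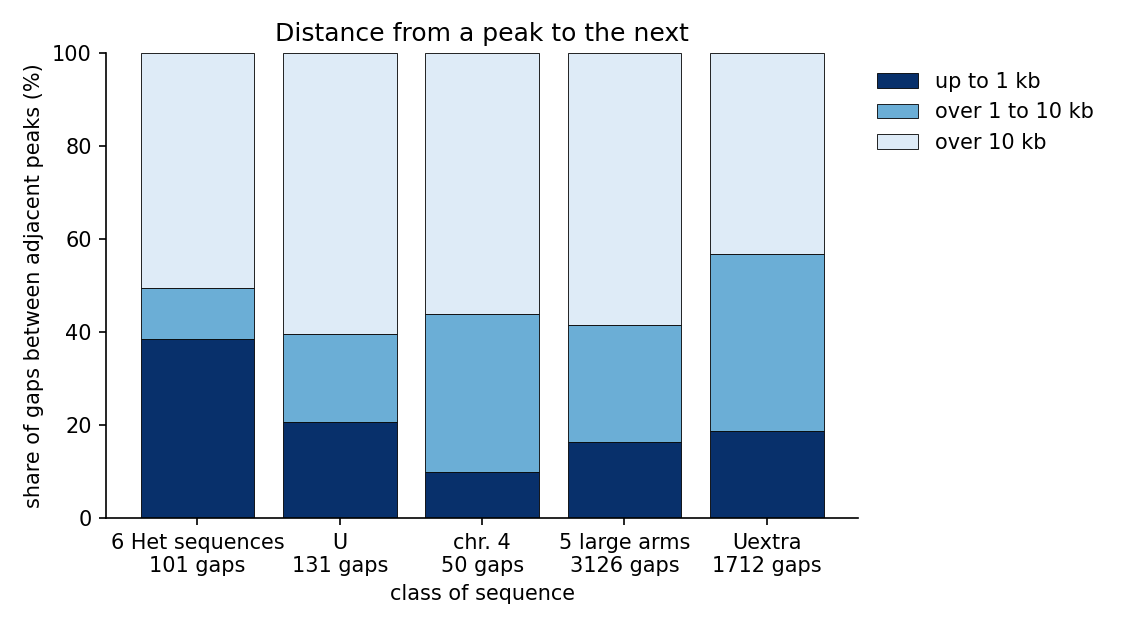
Share of gaps between adjacent peaks (%, stacked to 100) that were up to 1 kb, over 1 to 10 kb and over 10 kb, for the Het sequences, U, chromosome 4, the 5 large arms and Uextra. The darkest block, gaps of up to 1 kb, is 38.6% on the Het sequences and 10.0% on chromosome 4.

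Groups of at least 3 peaks separated by no more than 1 kb each were counted next. The members held 15 such groups with 57 peaks, of which 9 groups with 34 peaks were on the Het sequences, 5 with 20 peaks on U and 1 with 3 peaks on chromosome 4. These took 31.8% of the peaks of the Het sequences, 15.2% of those of U and 5.88% of those of chromosome 4, compared with 11.7% over the whole list, 8.43% on the large arms and 16.3% on Uextra. A strong peak was rarely among them. Only 2 of the 15 groups, or 13.3% (exact 95% interval 1.66 to 40.5%), held a peak of the stronger 50%, against 53 of 75 groups on the arms, or 70.7% (59.0 to 80.6%), and 46 of 54 on Uextra, or 85.2% (72.9 to 93.4%). The highest score of a group had a median of 18.6 among the members, with a range of 13.04 to 31.26, and of 61.6 on the arms, with a range of 13.98 to 368.65. Group sizes differ between the classes, and a larger group has more chances to hold a strong peak. Strong peaks were also fewer among the members in general, 16.9% against 50.97% on the arms and 53.9% on Uextra. The shares of groups follow in part from this and were not adjusted for it.

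**Figure D4:**
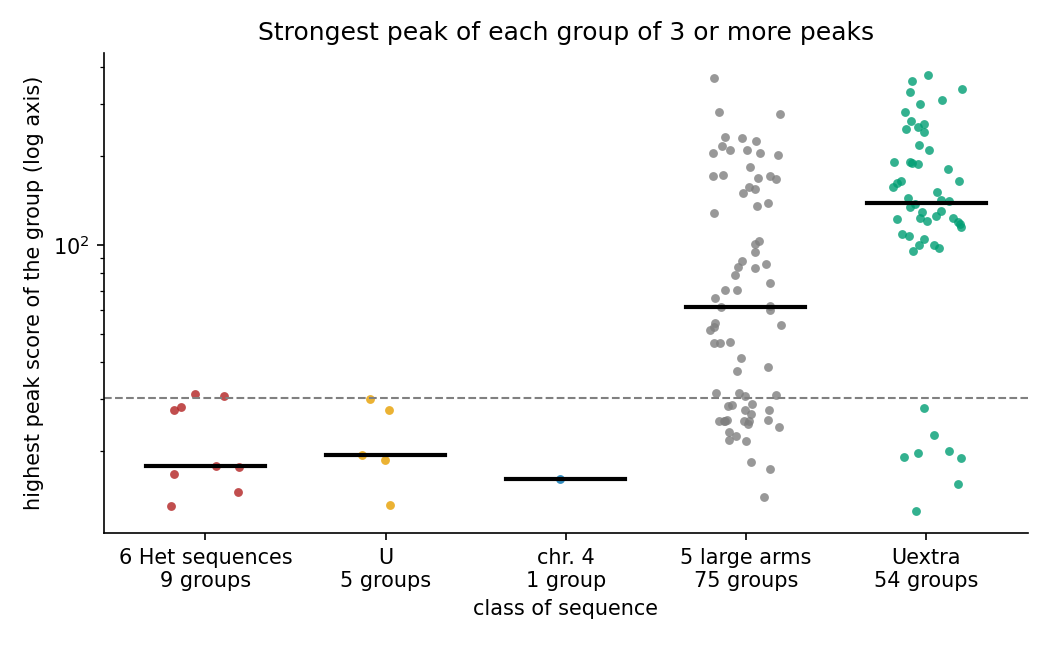
Highest peak score (log axis) of each group of 3 or more peaks joined at gaps of up to 1 kb, by class of sequence, with the median as a black bar and the median of the whole list, 30.1, as a dashed line. All 15 groups of the Het sequences, U and chromosome 4 lie at or under 31.26, while those of the large arms reach 368.65.

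One of the 2 largest of these groups on the Het sequences lay on 3LHet, where 5 peaks between 2202630 and 2208594 covered 85.0% of 5.96 kb, with gaps of 54 to 706 bp and scores from 14.25 to 31.26. It contained 2 of the 5 widest members. A second group of 5 peaks on 3LHet, between 854805 and 858244, covered 67.0% of 3.44 kb with scores from 8.33 to 17.82. On 2RHet, 4 peaks between 908533 and 911856 covered 87.3% of 3.32 kb with scores from 9.82 to 28.19. Groups of 4 and 3 peaks on 2RHet were separated by 1005 bp, just over the limit of 1 kb. Together these 7 peaks, between 2086887 and 2094042, covered 63.9% of 7.16 kb with scores from 8.75 to 27.47. The 7 were all the peaks of the window from 2.0 to 2.1 Mb on 2RHet, 1 of the densest windows. The only such group on chromosome 4, 3 peaks between 226634 and 228426, covered 81.8% of 1.79 kb with scores from 12.69 to 16.13.

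**Figure D5:**
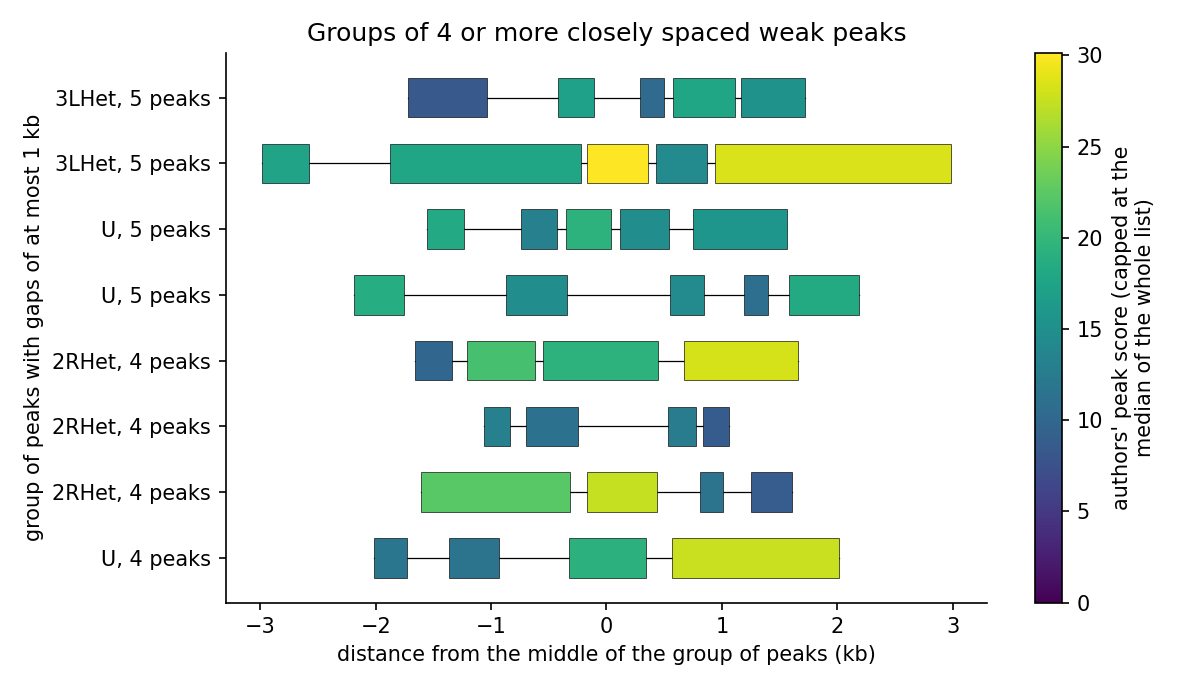
Layout of the 8 groups of 4 or more peaks joined at gaps of up to 1 kb on 3LHet, 2RHet and U, as distance from the middle of each group (kb), with each peak drawn to scale as a box coloured by its score. Boxes fill between 47.3% and 87.3% of the length of their groups, and no score in them exceeds 31.26.

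On U the 3 longest runs, joined at gaps of up to 10 kb, held 10, 9 and 8 peaks and no peak of the stronger 50%. They lay at 3393040 to 3408543 with scores from 8.69 to 27.58, at 2184460 to 2199424 with 10.80 to 30.05 and at 1091536 to 1105669 with 10.01 to 19.38. The windows of 100 kb with the most members overlapped these runs, with 10 peaks from 2.1 to 2.2 Mb, with a median score of 20.1, and 7 peaks each from 1.0 to 1.1 Mb and from 3.4 to 3.5 Mb, with medians of 15.8 and 11.4. With 2RHet at 2.0 to 2.1 Mb these were the 4 densest, and 7 further windows, 4 of them on chromosome 4, shared the next place with 6 peaks each.

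Along U, peaks with a close neighbour were mostly in one stretch. In its first 5 Mb, a division chosen after seeing the list, 36 of 76 peaks, or 47.4% (35.8 to 59.2%), had a neighbour within 1 kb and 11, or 14.5% (7.45 to 24.4%), were in the stronger 50%. In the rest of U, 8 of 56 peaks, or 14.3% (6.38 to 26.2%), had such a neighbour and 16, or 28.6% (17.3 to 42.2%), were strong. The intervals of the strong shares overlap, so they are not resolved. Peaks scoring over 100 numbered 4 in the first stretch and 7 in the rest. The Mb from 9 to 10 held 7 of the 27 strong peaks of U among 19 peaks, the Mb from 2 to 3 held 6 among 21, and the Mb from 3 to 4 held none among 17.

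Strong peaks with a close neighbour were few, mainly through U. Of the 175 peaks with no neighbour within 1 kb, 42 were in the stronger 50%, or 24.0% (17.9 to 31.0%), and of the 115 with one 7 were, or 6.09% (2.48 to 12.1%). On U these were 26 of 88 peaks, or 29.5% (20.3 to 40.2%), and 1 of 44, or 2.27% (0.0575 to 12.0%). On the Het sequences they were 6 of 45, or 13.3% (5.05 to 26.8%), and 5 of 62, or 8.06% (2.67 to 17.8%), with overlapping intervals, and the median score there was lower for solitary peaks, 14.2, than for crowded ones, 16.8. On chromosome 4 they were 10 of 42 and 1 of 9. On Uextra the order was the other way, with 47.7% (44.8 to 50.5%) of solitary peaks and 70.2% (65.8 to 74.3%) of crowded ones in the stronger 50%. On the large arms the shares were 52.9% (50.8 to 55.0%) for solitary and 46.4% (43.1 to 49.7%) for crowded peaks.

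Because crowded peaks inflate a count, densities were also taken over groups. The 8 sequences together had 14.6 peaks per Mb (exact Poisson 95% interval 13.0 to 16.4) over 19.8 Mb, where the furthest peak end stood for the length of each sequence. Counting peaks joined at gaps of at most 1 kb once left 8.04 per Mb on the Het sequences in place of 12.6, 10.5 on U in place of 13.2, and 34.1 on chromosome 4 in place of 37.8. On the large arms the values were 22.0 and 26.3. Peaks covered 0.670% of the Het sequences, 0.614% of U, 1.64% of chromosome 4 and 1.49% of the large arms. How much of each sequence reads can be placed on differs with its repeats, and the part of this in the densities, scores and gaps was not tested.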

How the data were processed

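The deposited file holds peaks with a position and a score from the authors' caller, in 1 list for all libraries. Per the file headers, peaks came from MACS and coordinates follow FlyBase release 5. BDGP5, BWA, MACS2 and CASAVA (1.7.0.3 and 1.7.0.2) are named in the submitters' processing notes. No source used here states the scale of the score or whether libraries were pooled before peaks were called. The score was used within the list for ranks, medians, ranges and a rank correlation with width, and no ratio of scores is reported. Any upstream filter or control scaling acts on all values.

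Members were taken by sequence name, and scores, widths, gaps and runs were computed from the list in Python 3.11.15 (scipy 1.17.1, pandas 2.3.3, numpy 2.4.6) and drawn with matplotlib 3.10.9. Shares have exact Clopper-Pearson intervals, counts exact Poisson intervals and medians order-statistic intervals, all at 95%. The functions for shares, medians, runs and neighbours were tested on simulated data, and the one for Poisson intervals was not. No test between groups was run, since the list has no values per library.

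Positions named are the 10 highest-scoring members, the highest peak of each sequence, the 5 widest, the densest windows of 100 kb, the 3 largest runs and all peaks of sequences with at most 7. Any other position was picked with its value in view. The members and these rules were chosen with earlier results of these data known.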

Additional observations from a re-analysis of the deposited data

How the results depend on the processing

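No paired analysis was possible because replicates have no values of their own in the list, and none could be left out. Of 19 alternatives, 16 planned and 3 added after seeing the data, 6 stayed within the 95% interval of the value reported. The share of strong peaks moved to 10.3% on the 6 Het sequences alone, to 7.24% for the stronger 25% and to 27.1% with runs counted once by their strongest peak. Members of the stronger 50% had, by construction, a median score of 62.4 and a density of 2.47 per Mb, and their median width was 526 bp. The share with a neighbour within 10 kb was 56.2% at 5 kb, 71.7% at 20 kb and 68.99% without U. Among strong members it was 16.3%, where only other strong members counted as neighbours. In the 3 added alternatives, the neighbour share at 1 kb was 39.7%, and joining or counting once the peaks with gaps of at most 1 kb gave a median width of 416 bp and 11.0 per Mb. Merging touching peaks changed no width. Without the depth of the libraries, sites too weak to be called cannot be counted.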

Other observations

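On 4 of the 8 sequences the highest score belonged to the first or last listed peak. The highest score of 2LHet, 537.36, and that of 3RHet, 129.44, belonged to the last peak on those sequences, at 367856 to 368942 and at 2308120 to 2308638. On XHet and YHet the highest scores, 43.38 and 66.68, belonged to the first peak, at 131 to 706 and at 4489 to 4829. On the other 4 sequences the highest peak was at neither end. The first and last peaks scored 13.35 and 20.05 on chromosome 4, 22.08 and 12.91 on 2RHet, 20.99 and 28.41 on 3LHet, and 19.92 and 47.37 on U. On XHet and YHet 2 of only 5 peaks are end peaks, and on 2LHet 2 of only 7. The same count was not made for the large arms or Uextra. These positions were noticed after the values were seen.

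A pair of peaks on U, at 2191894 to 2192098 and 4698747 to 4698951, had the same width of 205 bp and the same score of 10.80. Both values also matched between 2LHet at 170076 to 170276 and Uextra at 26622693 to 26622893 (201 bp, score 10.01). The same held for U at 9400565 to 9400765 and Uextra at 11675937 to 11676137 (201 bp, 13.79). A last match was between U at 9112122 to 9112324 and X at 15217540 to 15217742 (203 bp, 12.47). All 4 pairs were narrow and weak, and their sequences were not compared. A width of 201 bp is the smallest in the list, and weak scores recur in it. Such matches were not counted among peaks outside the members, so how common they are is not known.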
